A study of Homo sapiens with 54 samples.

Results

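The genes described are 9 transcription factors of the STAT and interferon regulatory factor (IRF) families: STAT2, STAT3, STAT5A, STAT5B, IRF9, IRF7, IRF1, IRF2, and IRF3. They were chosen by symbol as the STATs other than STAT6 and the IRFs that act in the interferon pathway, and they are 9 of the 31835 genes of the UMI table. All 9 were present in the table. STAT5A was close to the limit of detection, with 54 UMIs in all and no UMI in 23 of the 54 libraries, whereas the other members had between 460 (IRF9) and 1666 (IRF3) UMIs in all.

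STATs and IRFs are the transcription factors that carry cytokine and interferon signals to the genome. After type I interferon binds its receptor, STAT2 and a partner STAT are phosphorylated by receptor-bound kinases and join IRF9, the subunit that recognizes DNA, to form ISGF3, which switches on interferon-stimulated genes. IRF3 and IRF7 act on the other side of this circuit, since they turn on the interferon genes themselves, and IRF7 is in turn an ISGF3 target. IRF1 is an activator downstream of interferon gamma, IRF2 binds the same elements and is known as its antagonist, and STAT3, STAT5A, and STAT5B serve other cytokines. STAT6 is the STAT of the IL-4 receptor, and its target site has a wider spacer than that of the other STATs.

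OCI-Ly1, an established human B cell lymphoma line, was stably transduced with Flag-tagged STAT6WT or with the DNA binding domain mutants D419G, D419N, or N421K, which are joined as STAT6MUT, and the question was how the mutants change gene expression after IL-4. All cells received IL-4 at 10 ng/ml for 20 min, were washed, and were kept without IL-4 until RNA was taken at 2, 4, or 8 h, which gave 9 STAT6WT libraries and 3 libraries of each mutant line per time. The STAT6 cDNA was driven by a CMV promoter in cells that still have their own STAT6, which carries a variant in the DNA binding domain in this line, so that all groups, STAT6WT included, overexpressed STAT6 and had seen IL-4, and no unstimulated or vector-only library is among the 54. How many times each construct was transduced is not given, so that genotype and transduced population cannot be told apart.

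The libraries were made with prime-seq, which counts each mRNA molecule once at its 3′ end by a unique molecular identifier (UMI), and held 161518 to 2978715 UMIs (median 885258.5). Of these, 8 held less than 0.5 of the median total, 6 from STAT6MUT and 2 from STAT6WT cells. All 8 B cell markers passed the count filter, with a summed level of 3248 to 4110 CPM in STAT6WT and 3120 to 4057 CPM in STAT6MUT libraries, and across times 2 of them were higher (BCL6, MME) and 3 lower (CD79A, CD79B, CD22) in STAT6MUT. The T cell markers had 31 UMIs and the monocyte markers 19 UMIs over all libraries, and of the 4 markers of plasmacytoid dendritic cells, a source of interferon, only TCF4 was in the table. TCF4, which B cells also express, had 38835 UMIs and was higher in STAT6MUT (log2 fold change 0.22 ± 0.036, adjusted p = 1.3e-06). The epithelial markers summed to 77.8 to 137 CPM in STAT6WT and 17.7 to 107 CPM in STAT6MUT libraries. Of these 4 markers, EPCAM was lower in STAT6MUT (-1.16 ± 0.11, adjusted p = 1.0e-13), CDH1 had a log2 fold change of 0.0083 (adjusted p = 0.983), and the keratins KRT8 and KRT18 had 17 and 9 UMIs over all libraries. The part of TCF4 and EPCAM in the results was not tested. Levels are given as CPM, UMI counts scaled to a common library size after TMM normalization, and are compared between libraries, never between genes. In these bulk samples, fewer cells that express a gene and less RNA per cell cannot be told apart.

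The promoter table of RefSeq held 6 of the 9 members, with 8 windows of 250 bases before to 50 bases after a start site (GRCh38.p14). IRF7, IRF2, and IRF3 had no window, so that their promoters were not searched. Of the 6 members, only IRF1 and IRF9 held the general STAT element TTCNNNGAA. Both were higher in STAT6MUT, as was STAT2, whose window held no such element. The IRF1 and IRF9 sequences are shown 5′ to 3′ on the strand of the gene, with the STAT element in capitals. The IRF1 stretch lies on chr5:132490774-132491023 (minus strand), and its element begins 124 bases before the start. The IRF9 stretch lies on chr14:24161192-24161220 (plus strand), and its element begins 63 bases before the start.
IRF1: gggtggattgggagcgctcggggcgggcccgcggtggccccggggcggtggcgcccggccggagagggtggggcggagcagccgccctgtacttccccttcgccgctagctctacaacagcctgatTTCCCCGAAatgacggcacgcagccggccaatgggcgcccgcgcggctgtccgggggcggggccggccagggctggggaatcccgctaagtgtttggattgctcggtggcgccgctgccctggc
IRF9: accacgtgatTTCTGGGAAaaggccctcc

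The letters TTCNNNGAA, which read the same on both strands, were in 7.66% of all 35116 windows of the table. The wider element TTCNNNNGAA, the form preferred by STAT6, was in 6.44% of all windows and in 1 member window, an alternative start of STAT5A. The core of the interferon-stimulated response element, GAAANNGAAA on either strand, was in 3.57% of all windows. It was in no member window, and IRF7, IRF2, and IRF3 had none to search. The STAT2, STAT3, and STAT5B windows held none of the 3 motifs. A match describes the letters and is not a binding site, and the elements do not overlap each other in these windows.

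Across the time points, 5 of the 8 members tested were higher in STAT6MUT than in STAT6WT (IRF7, IRF9, IRF1, STAT2, and IRF2), and none was lower. IRF7 and IRF9 rose by 1.45 and 1.32 on the log2 scale, IRF1, STAT2, and IRF2 by 0.41 to 0.28, and STAT3, STAT5B, and IRF3 did not pass the test. In this comparison 13.4% of the 9261 genes tested were called and 6.74% were called higher. The median log2 fold change was 0.31 over the members tested and 0.0012 over all genes tested. UMI counts were tested by edgeR (quasi-likelihood, with time as a covariate) with Benjamini-Hochberg adjustment over all genes that passed edgeR's count filter, which STAT5A did not. A gene is called at an adjusted p under 0.05. IRF9 passed the filter largely through its STAT6MUT libraries (median 12.8 CPM, against 4.65 CPM in STAT6WT), so that the count of 5 of 8 and the member median depend on it. Without the filter, 4 of the 9 members were called, all higher, beside 1169 of 31835 genes. The member median was then 0.27, and IRF9 had a log2 fold change of 1.31 ± 0.15 (SE, adjusted p = 1.6e-14, edgeR). The adjusted p values that follow are from edgeR's quasi-likelihood test unless DESeq2 is named. Fits by time, by line, of the interaction, or without the filter have their own model or filter.

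**Figure D1:**
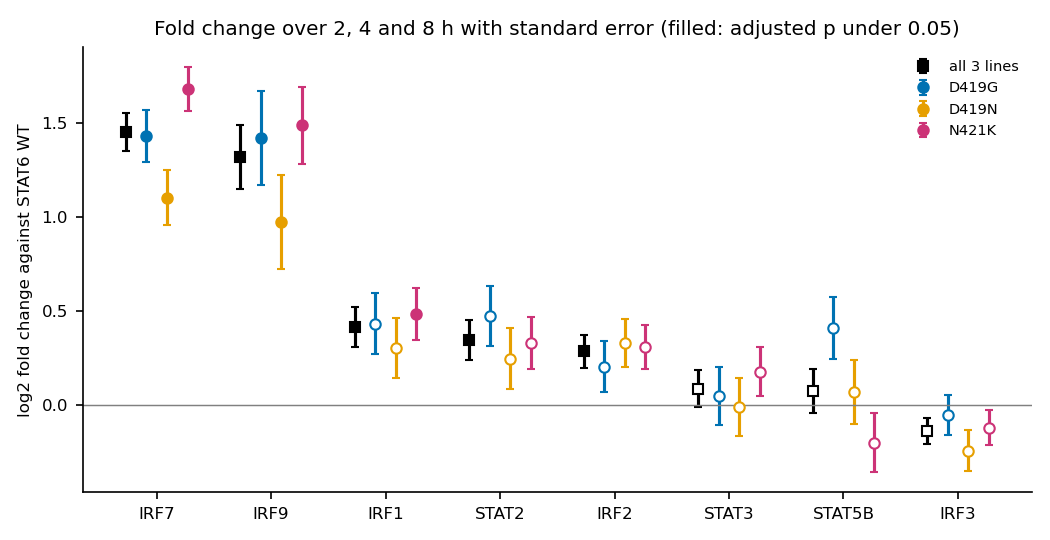
Log2 fold change against STAT6WT over 2, 4, and 8 h (y axis) of the 8 members that passed the count filter (x axis), for the 3 mutant lines together and for each line, with the standard error as bars; filled symbols passed an adjusted p under 0.05. IRF7 and IRF9 lie near or above 1 in every line, and the other members lie within 0.5 of 0.

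IRF9 (ENSG00000213928, chr14:24161234-24168043), the DNA-recognizing subunit of ISGF3, had 12.3 ± 8.15 CPM in STAT6MUT and 4.94 ± 3.15 CPM in STAT6WT (SD, n = 27 each), and the log2 fold change was 1.32 ± 0.17 (SE, adjusted p = 3.7e-09). At 2 h, IRF9 stood at 13.9, 28.1, and 14.5 CPM in D419G, at 0, 4.76, and 16.0 CPM in D419N, and at 13.8, 13.7, and 18.6 CPM in N421K, against 1.66 to 15.4 CPM (median 5.93) in STAT6WT. The D419G and N421K libraries were above the STAT6WT median, whereas D419N reached from 0 to above the highest STAT6WT library. At 4 h, IRF9 had 12.8, 25.6, and 11.3 CPM in D419G, 8.78, 16.2, and 22.3 CPM in D419N, and 21.7, 24.0, and 21.9 CPM in N421K, against 2.14 to 10.2 CPM (median 4.65) in STAT6WT. Of the 9 STAT6MUT libraries, 8 lay above every STAT6WT library, and the remaining D419N library lay above the STAT6WT median. At 8 h, IRF9 was back at 4.91 to 7.25 CPM in D419G, 0 to 4.09 CPM in D419N, and 4.07 to 10.0 CPM in N421K, against 1.53 to 8.43 CPM (median 2.82) in STAT6WT. The groups overlapped at 2 h and at 8 h, and 1 STAT6MUT library exceeded all STAT6WT libraries at 8 h. No IRF9 UMI was found in 3 D419N libraries with 161518, 274646, and 445800 UMIs, which allows levels of up to 17.6, 11.6, and 6.61 CPM at 3 counts, so that these libraries do not show that IRF9 RNA was absent.

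IRF9 did not pass the count filter when the times were fitted one by one. Without the filter, edgeR gave log2 fold changes of 1.13 ± 0.24, 1.92 ± 0.25, and 0.56 ± 0.38 at 2, 4, and 8 h, with adjusted p values of 2.4e-04, 3.4e-11, and 0.588. In these unfiltered fits, 2.69%, 1.35%, and 0.901% of genes were called at 2, 4, and 8 h. IRF9 shares its strand with a readthrough gene of the same locus (ENSG00000259529), which had 172 UMIs in all and was also higher in STAT6MUT, at 4.81 against 1.25 CPM (log2 fold change 1.73 ± 0.26, adjusted p = 7.2e-09 without the filter). Counts of these genes could be shared in part, and the split was not tested.

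**Figure D2:**
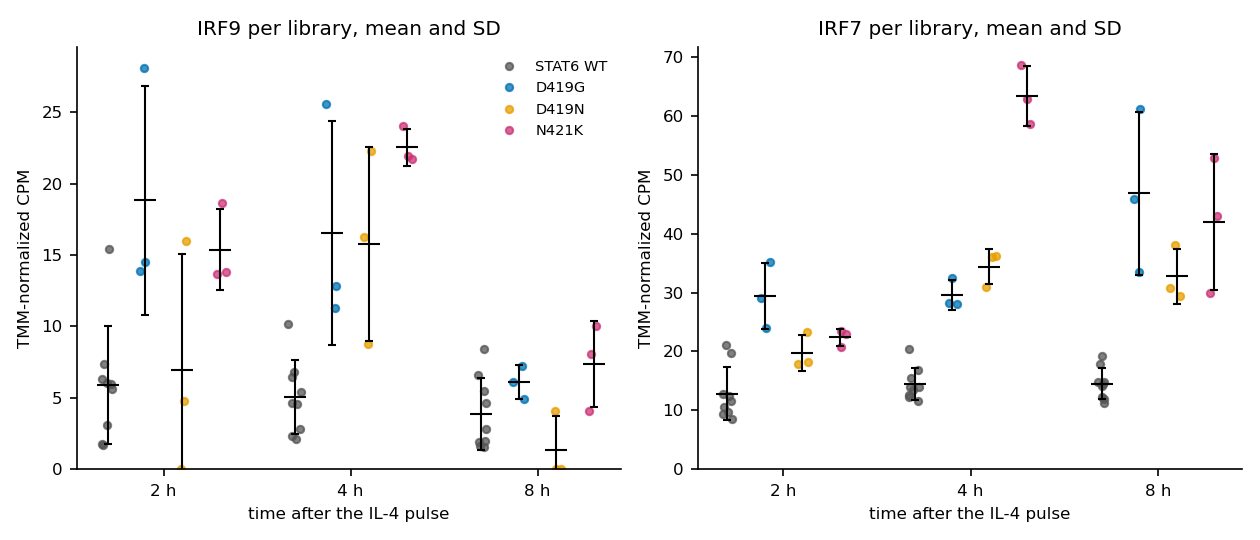
CPM of IRF9 (left) and IRF7 (right) in every library by time after the IL-4 pulse (x axis), colored by STAT6 line, with the mean and SD (cut at 0) of 9 STAT6WT or 3 mutant libraries. IRF7 of STAT6MUT lies between 28.2 and 68.7 CPM at 4 h, above all STAT6WT libraries, and IRF9 of STAT6MUT is at 8.78 to 25.6 CPM at 4 h and at 0 to 10.0 CPM at 8 h.

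STAT2 (ENSG00000170581, chr12:56341597-56360203), the STAT that binds IRF9 in ISGF3, had 24.1 ± 7.49 CPM in STAT6MUT and 18.3 ± 5.99 CPM in STAT6WT (SD, n = 27 each). The log2 fold change was 0.35 ± 0.11 (SE, adjusted p = 0.0186), and 21 of 27 STAT6MUT libraries were above the STAT6WT median. The spread of the groups overlapped at each time. At 4 h, STAT2 reached from 15.1 to 39.4 CPM (median 24.1) in STAT6MUT and from 11.2 to 25.5 CPM (median 14.2) in STAT6WT. By itself, no time passed the test for STAT2, with log2 fold changes of 0.19 ± 0.16, 0.53 ± 0.18, and 0.35 ± 0.19 at 2, 4, and 8 h (adjusted p = 0.549, 0.0895, and 0.418). The call across times was lost without the 8 shallow libraries (adjusted p = 0.0617), without D419G (0.118), and without N421K (0.0613). It was also lost without replicate number 2 (0.0815), 3 (0.293), or 9 (0.0568). Numbers 1 to 3 occur in every line, whereas numbers 4 to 9 occur in STAT6WT only. Leaving out a number thus removes STAT6MUT libraries only for numbers 1 to 3.

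IRF7 (ENSG00000185507, chr11:612553-615983), the inducible activator of type I interferon genes, had 35.6 ± 14.2 CPM in STAT6MUT and 14.0 ± 3.37 CPM in STAT6WT (SD, n = 27 each), and the log2 fold change was 1.45 ± 0.10 (SE, adjusted p = 1.6e-20). All 27 STAT6MUT libraries were above the STAT6WT median and 24 were above every STAT6WT library. At 2 h, IRF7 stood at 23.9, 35.1, and 29.1 CPM in D419G, at 23.3, 17.8, and 18.2 CPM in D419N, and at 20.7, 23.4, and 23.0 CPM in N421K, against 8.53 to 21.0 CPM (median 11.6) in STAT6WT. The D419G libraries lay apart from STAT6WT, and the other lines reached into its range. At 4 h, IRF7 had 28.2, 32.5, and 28.2 CPM in D419G, 36.2, 36.1, and 31.0 CPM in D419N, and 62.9, 58.7, and 68.7 CPM in N421K, against 11.6 to 20.4 CPM (median 13.9) in STAT6WT. At 8 h, IRF7 had 45.9, 33.6, and 61.1 CPM in D419G, 38.1, 30.9, and 29.4 CPM in D419N, and 43.1, 30.0, and 52.9 CPM in N421K, against 11.3 to 19.3 CPM (median 14.5) in STAT6WT. The groups did not overlap at 4 and 8 h.

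Fitted time by time, IRF7 was higher by a log2 fold change of 0.96 ± 0.17 at 2 h, 1.68 ± 0.18 at 4 h, and 1.62 ± 0.15 at 8 h, with adjusted p values of 6.9e-05, 2.3e-09, and 1.6e-10. IRF7 was the single member called among the 7 tested at 2 h and the 7 tested at 8 h, and IRF9 did not pass the count filter at either time. Of all genes tested, 8.59%, 3.97%, and 1.44% were called at 2, 4, and 8 h, and the groups did not overlap for 0.682%, 0.349%, and 0.125% of the genes tested at these times. In order of their mean IRF7 level, the groups of line and time began with N421K at 4 h (63.4 ± 5.05 CPM), D419G at 8 h (46.9 ± 13.8), and N421K at 8 h (42.0 ± 11.5), followed by D419N at 4 h (34.4 ± 2.99) and 8 h (32.8 ± 4.68). D419G at 4 h (29.6 ± 2.52) and 2 h (29.4 ± 5.60), N421K at 2 h (22.4 ± 1.47), and D419N at 2 h (19.8 ± 3.04) came next, and STAT6WT at 8 h (14.5 ± 2.66), 4 h (14.5 ± 2.72), and 2 h (12.8 ± 4.51) came last. Neighbors in this order differed by less than the larger of their SDs, apart from N421K at 4 h and D419G at 8 h, D419G and N421K at 2 h, and D419N at 2 h and STAT6WT at 8 h.

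IRF1 (ENSG00000125347, chr5:132440440-132508719), an activator known from the interferon gamma response, had 17.3 ± 6.34 CPM in STAT6MUT and 12.9 ± 3.67 CPM in STAT6WT (SD, n = 27 each), and the log2 fold change was 0.41 ± 0.11 (SE, adjusted p = 0.00310). At 4 h, IRF1 stood at 28.2, 17.4, and 16.9 CPM in D419G, at 19.7, 21.7, and 17.3 CPM in D419N, and at 26.2, 36.0, and 20.9 CPM in N421K, against 8.92 to 18.5 CPM (median 12.9) in STAT6WT. All 9 STAT6MUT libraries were above the STAT6WT median and 6 were above every STAT6WT library, with a log2 fold change of 0.71 ± 0.18 (adjusted p = 0.0105). At 2 and 8 h, the IRF1 log2 fold changes were 0.30 ± 0.18 (adjusted p = 0.337) and 0.20 ± 0.19 (adjusted p = 0.748), and the groups overlapped. Without replicate number 2, IRF1 was no longer called across times (0.31, adjusted p = 0.0666) or at 4 h (0.58, adjusted p = 0.151). Without the N421K line, it was likewise not called across times (0.37, adjusted p = 0.0503) or at 4 h (0.52, adjusted p = 0.273). Few UMIs were counted on the antisense gene of this locus, IRF1-AS1 (179 in all).

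IRF2 (ENSG00000168310, chr4:184385702-184474558), which competes with IRF1 for its elements, had 22.8 ± 5.73 CPM in STAT6MUT and 19.3 ± 5.31 CPM in STAT6WT (SD, n = 27 each). Its log2 fold change of 0.28 ± 0.087 (SE, adjusted p = 0.0177) was the smallest of the 5 members called. The groups overlapped at each time, and 21 of 27 STAT6MUT libraries were above the STAT6WT median. At the single times, IRF2 did not pass, with log2 fold changes of 0.23 ± 0.16, 0.33 ± 0.16, and 0.29 ± 0.15 (adjusted p = 0.418, 0.326, and 0.391). The call across times was lost without the count filter (adjusted p = 0.0999), without D419N (0.0557) or N421K (0.109), and without replicate number 1 (0.0912) or 3 (0.182).

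The STATs of other cytokines did not pass the test. STAT3 (ENSG00000168610, chr17:42313324-42388540), the STAT of the IL-6 and IL-10 families, had 16.0 ± 5.40 CPM in STAT6MUT and 15.1 ± 3.83 CPM in STAT6WT (SD, n = 27 each). Its log2 fold change was 0.08 ± 0.10 (adjusted p = 0.675, 95% interval -0.11 to 0.28). STAT5B (ENSG00000173757, chr17:42199176-42288633) had 14.9 ± 5.38 and 14.5 ± 5.10 CPM, with a log2 fold change of 0.07 ± 0.12 (adjusted p = 0.765, 95% interval -0.16 to 0.31). STAT5A (ENSG00000126561, chr17:42287547-42311943), its close paralog on the opposite strand with overlapping starts, had 0 to 6 UMIs per library. Without the count filter, the STAT5A log2 fold change was 0.09 ± 0.35 (adjusted p = 0.944), and a change of STAT5A was not detectable at this depth.

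IRF3 (ENSG00000126456, chr19:49659569-49665875), which is present in resting cells and is activated by phosphorylation rather than by new RNA, had 28.9 ± 7.13 CPM in STAT6MUT and 32.6 ± 3.96 CPM in STAT6WT (SD, n = 27 each). IRF3 was the one member with a negative log2 fold change, at -0.14 ± 0.070 (adjusted p = 0.200, 95% interval -0.28 to -0.0030). The groups overlapped at every time, and 7 of 27 STAT6MUT libraries were above the STAT6WT median. IRF3 overlaps BCL2L12 on the opposite strand, which had 3153 UMIs and a log2 fold change of -0.056 (adjusted p = 0.631).

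**Figure D3:**
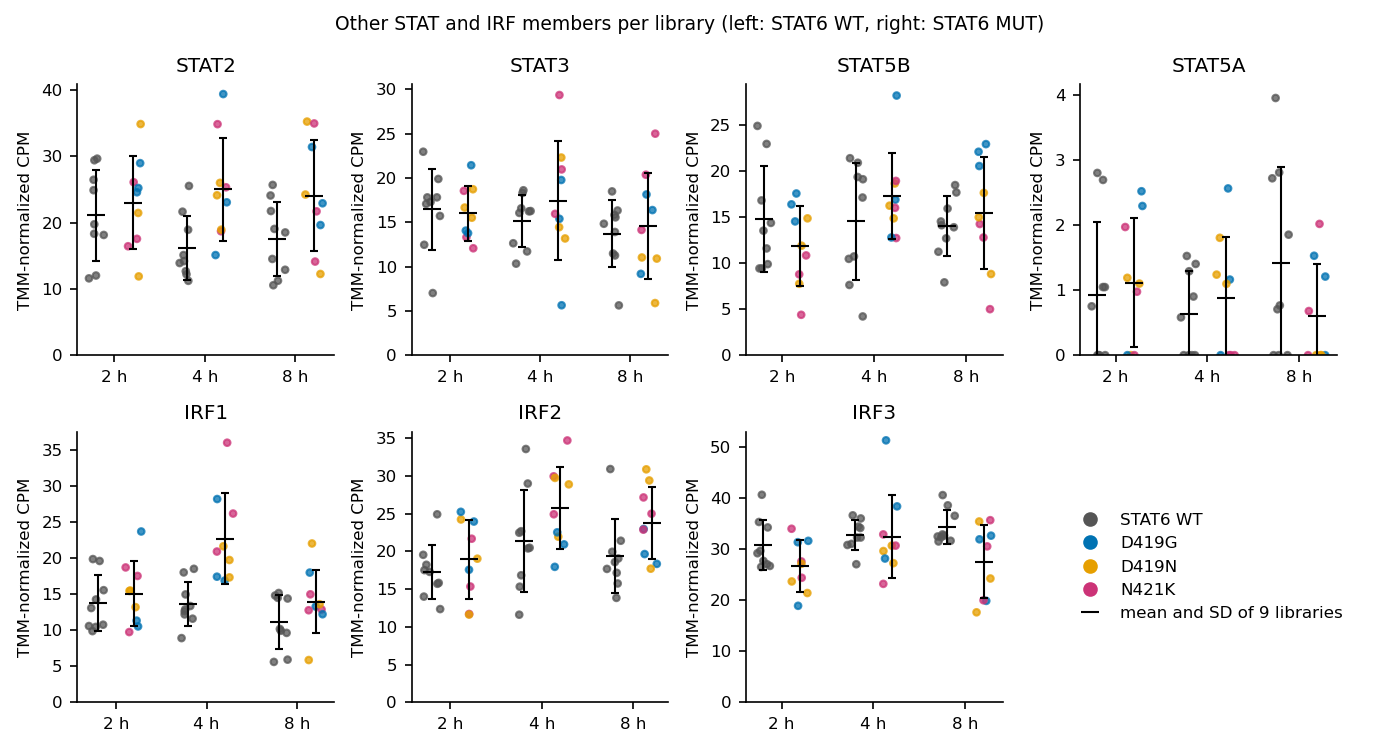
CPM of the other 7 members in every library by time after the IL-4 pulse (x axis, hours), with STAT6WT to the left and STAT6MUT to the right of each time and the mean and SD of 9 libraries. IRF1 at 4 h is at 16.9 to 36.0 CPM in STAT6MUT against 8.92 to 18.5 CPM in STAT6WT, and STAT5A is at 0 in 23 of the 54 libraries.

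Taken line by line against STAT6WT over all times, IRF7 and IRF9 were called in each mutant line. The IRF9 log2 fold change was 1.42 ± 0.25 in D419G (adjusted p = 2.6e-05), 0.97 ± 0.25 in D419N (adjusted p = 0.0120), and 1.49 ± 0.21 in N421K (adjusted p = 2.2e-08). The IRF7 log2 fold change was 1.43 ± 0.14 in D419G (adjusted p = 1.4e-13), 1.10 ± 0.15 in D419N (adjusted p = 2.5e-08), and 1.68 ± 0.12 in N421K (adjusted p = 3.5e-22). IRF1 was called in N421K only (0.48 ± 0.14, adjusted p = 0.00865), next to 0.43 ± 0.16 in D419G (adjusted p = 0.109) and 0.30 ± 0.16 in D419N (adjusted p = 0.405). The share of all genes called was 5.38% in D419G, 2.75% in D419N, and 13.7% in N421K. The 3 lines were compared with the same STAT6WT libraries, and all lines were fitted with a shared spread.

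IRF7 was also the single member whose level differed among the mutant lines (adjusted p = 0.0258, joint test, with 2.39% of genes called). It was higher in N421K than in D419N by 0.58 ± 0.14 on the log2 scale (adjusted p = 0.0104, 1.88% called), at 42.6 ± 18.9 against 29.0 ± 7.65 CPM over all times (SD, n = 9 each, which includes the change with time). The other pairs did not pass, at 0.25 for N421K against D419G (95% interval -0.019 to 0.52, adjusted p = 0.522) and -0.33 for D419N against D419G (95% interval -0.64 to -0.016, adjusted p = 0.507). The joint test did not pass with DESeq2 (adjusted p = 0.0660) or without replicate number 1 (0.233), 2 (0.0985), or 3 (0.234) in edgeR. IRF9 and IRF1 did not pass this test (adjusted p = 0.447 and 0.849). STAT5B had 19.1 ± 4.80 CPM in D419G, 14.0 ± 3.75 CPM in D419N, and 11.5 ± 4.83 CPM in N421K (SD, n = 9 each), with log2 fold changes of 0.41, 0.068, and -0.20 against STAT6WT and a joint adjusted p of 0.180.

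From 2 h to 8 h after the IL-4 pulse, IRF7 and IRF9 moved in opposite directions in STAT6MUT cells. IRF7 rose by 0.91 ± 0.15 on the log2 scale (adjusted p = 1.8e-06), from 23.8 ± 5.41 to 40.6 ± 11.2 CPM, and IRF9 fell by 1.41 on the log2 scale (SE 0.28, adjusted p = 4.9e-05), from 13.7 ± 7.95 to 4.94 ± 3.40 CPM (SD, n = 9 each). In STAT6WT cells, no member was called, with an IRF7 log2 fold change of 0.27 ± 0.17 (adjusted p = 0.237) and an IRF9 log2 fold change of -0.79 ± 0.33 without the count filter (adjusted p = 0.128). A count of 0 members stood beside 1 member with an unadjusted p under 0.05 (IRF3), and 0 members were called with DESeq2. The share of all genes called was 34.1% in STAT6MUT and 30.7% in STAT6WT. Each time had plate rows of its own, so that time and plate row cannot be told apart.

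Whether the genotype effect differed between the times was tested by the interaction of genotype and time. The adjusted p was 0.236 for IRF7 and 0.278 for IRF9, and no member was called (0.957% of genes were called). The unadjusted p was under 0.05 for these 2 members (0.0108 and 0.0179), and 0 members were called with DESeq2.

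The genes around the members were taken from lists of the pathway and compared between STAT6MUT and STAT6WT across times, where 13.4% of all genes tested were called and 6.74% were called higher. Of the 20 ISGF3 target genes, 13 passed the count filter, 12 were called higher, and none was called lower, with a median log2 fold change of 0.84. The largest were IFI44 (3.22 ± 0.23), IFI27 (2.53 ± 0.18), MX1 (2.28 ± 0.12), an antiviral GTPase, and PARP9 (1.72 ± 0.16), an ADP-ribosyltransferase, and all adjusted p values were at most 3.0e-14. SP100, a protein of nuclear bodies, was the single tested gene not called (0.022 ± 0.047, adjusted p = 0.823). The other 7 genes, among them OASL, RSAD2, and IFIT1, had too few UMIs. IFI44, IFI27, and PARP9 had means of 2.48, 2.67, and 6.07 CPM in STAT6WT and 18.8, 12.8, and 17.5 CPM in STAT6MUT. Such genes passed the filter largely through their STAT6MUT libraries. The share called and the median of this list are thus set in part by the filter, and nothing is concluded from them. Among the interferon ligands, 3 of 8 genes were in the table, with 14 UMIs over all libraries, and none could be tested.

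In the same comparison, 1 of the 9 interferon receptors and their kinases, JAK2, was called higher (0.86 ± 0.14, adjusted p = 2.7e-06), whereas the receptor chains IFNAR1 (0.063, adjusted p = 0.640) and IFNAR2 (-0.030, adjusted p = 0.814) and the kinases JAK1 (0.0017, adjusted p = 0.993) and TYK2 (0.045, adjusted p = 0.750) did not pass. Among the adaptors and kinases upstream of IRF3 and IRF7, 10 of 12 were tested and 2 were called higher, the ubiquitin ligase TRAF3 (0.34 ± 0.093, adjusted p = 0.00697) and the Toll-like receptor adaptor MYD88 (0.21 ± 0.069, adjusted p = 0.0281). Among the negative regulators of JAK-STAT signalling, 9 of 12 were tested and 2 were higher, CISH (1.45 ± 0.19, adjusted p = 9.2e-09) and SOCS1 (0.35 ± 0.066, adjusted p = 4.2e-05). The median log2 fold changes of these lists were 0.0017, 0.0015, and 0.073, and nothing is read from counts this small beside 6.74% of all genes.

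Of the genes known as targets of IRF1 and interferon gamma, 5 of 16 were tested and 0 were called in edgeR or DESeq2, with an unadjusted p under 0.05 for 2 genes in edgeR. The most abundant of them were B2M (0.083 ± 0.038, adjusted p = 0.148) and PSMB9 (0.085 ± 0.069, adjusted p = 0.481), the light chain of MHC class I and a subunit of the immunoproteasome. Of the STAT3 and STAT5 targets, 5 of 10 were tested and CISH, which is also on the list of negative regulators, was the single gene called. Among other members of the STAT and IRF families, 6 of 9 were tested. IRF4, a factor of plasma cell differentiation, was higher (0.87 ± 0.14, adjusted p = 1.1e-06), as was the IRF2 corepressor IRF2BP2 (0.35 ± 0.088, adjusted p = 0.00238), and IRF8, a factor of germinal center B cells, was lower (-0.18 ± 0.037, adjusted p = 1.1e-04). STAT6 itself, with introduced and own transcripts not told apart, was lower by this test as well (-0.15 ± 0.044, adjusted p = 0.00982).

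**Figure D4:**
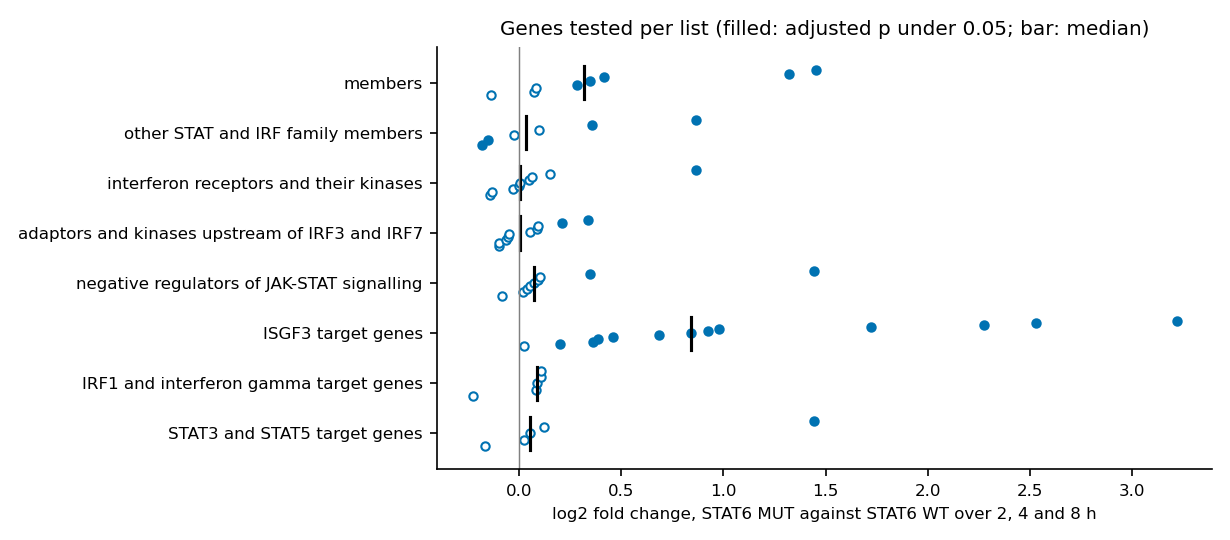
Log2 fold change of STAT6MUT against STAT6WT over 2, 4, and 8 h (x axis) of each gene that passed the count filter, by list (y axis); filled points passed an adjusted p under 0.05 and bars are medians. The ISGF3 targets reach from 0.022 to 3.22 with a median of 0.84, and the receptors and kinases, apart from JAK2, lie between -0.14 and 0.15.

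The genes most like a called member were found by Pearson's correlation of mean log2 CPM over the 12 groups of line and time. These groups share a plate, their libraries differ in depth, and a mean rests on 9 STAT6WT or 3 mutant libraries. The genes named are among the 3 highest of the 9261 genes tested across times. How high r rises by chance in such a search was not tested. IRF7 was most like EPSTI1 (r = 0.960) and MX1 (r = 0.959), and IRF1 was most like BISPR (r = 0.921), ADAR (r = 0.902), and HELZ2 (r = 0.878). IRF9 was most like NPC2 (r = 0.963), PCMTD2 (r = 0.912), and RAB6A (r = 0.912). The closest genes of STAT2 were ZNF286A (r = 0.856), EEF2K (r = 0.835), and TBL1XR1 (r = 0.828), and those of IRF2 were AHDC1 (r = 0.868), TNFRSF10A (r = 0.867), and MRGBP (r = 0.851).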

How the data were processed

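The 54 prime-seq libraries of OCI-Ly1 cells were grouped by STAT6 line and time from the labels. Read processing by the authors followed the Drop-seq pipeline, and the counts they deposited are raw UMI counts of genes in wells. The build in the notes of the submitters is hg38. Aligner, gene annotation, and strandedness remain not given in the sources used here. Coordinates are from GENCODE 44 (hg38), and 30959 identifiers had a symbol. No value column was left unused (0).

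The counts were tested with edgeR 4.0.16 (R 4.3.3) by quasi-likelihood F test after TMM normalization and filterByExpr. The model held time and genotype, or time and line, for all 54 libraries, each time alone (18 libraries), the groups of genotype and time for the interaction, or the 27 libraries of a genotype for 8 h against 2 h. Adjusted p values are over all genes tested, and 95% intervals are the estimate ± 1.96 SE. Floors of 3 counts cover counting error only. Log2 CPM used a prior count of 2, and Python 3.11.15 with matplotlib 3.10.9 was used for plots. Scripts were tested on simulated counts. The titles call the libraries biological replicates, but whether each came from its own culture or transduction is not given, so p values measure the spread between these libraries, which may be technical. Over 135 pairs of replicates, the chi-square per degree of freedom was 1.07 to 3.98, and whether a pair agreed within sampling noise was not tested.

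Alternatives were DESeq2 1.42.0, other scaling, other filters, a replicate block, summed libraries, and leaving out shallow libraries, replicate numbers, or lines. The fits of IRF9 without the count filter combined with some of these were added after seeing the data. The members and gene lists were chosen with earlier results of these data known, and the named genes follow a fixed rule: all members, up to 4 called genes of a list (or the 2 most abundant), and the 3 genes most like each called member. Markers, genes that overlap a member, and IFNAR1, IFNAR2, JAK1, TYK2, SP100, OASL, RSAD2, and IFIT1 are named besides it, after their values were seen. The result for 1 gene that this rule names is not reported here.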

Additional observations from a re-analysis of the deposited data

Results flagged for a closer look

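Chance sets about 1 in 20 groups apart by the gap test used here (a gap over 0.493 of the range for 9 libraries), and 27 groups of 9 libraries, 9 members at 3 times in STAT6WT, were tested. IRF9 at 2 h had its highest STAT6WT library (replicate 1) at 15.4 CPM, with the next at 7.33 CPM, a gap of 0.588 of the range. IRF2 at 8 h had its highest STAT6WT library (replicate 2) at 30.9 CPM, with the next at 21.4 CPM, a gap of 0.556 of the range. The IRF9 value rests on 11 UMIs in a library of 738018, and the IRF2 value on 11 UMIs in a shallow library of 357395. Counting error is thus large for both, and its part in the gaps was not tested. The IRF7 level differed among the mutant lines (adjusted p = 0.0258, edgeR), with the largest pairwise difference between N421K and D419N.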

How the results depend on the processing

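Over the reported fit and all alternatives that tested them, IRF7 (21 of 21) and IRF9 (23 of 23) remained called across times, with log2 fold changes of 1.27 to 1.58 and 1.18 to 1.46. IRF9 was not tested with a mean count of at least 10, without N421K, or without replicate number 1, since it did not pass the count filter there. Its 23 fits include those without the count filter that were added after seeing the data, so that the 2 totals are not comparable. IRF1 remained called in 18 of 21, IRF2 in 15, and STAT2 in 14. The count of members called across times (5) was 1 without N421K, where IRF9 did not pass the count filter. It was 3 without replicate number 1, 2, or 3, which hold libraries of every line. It was 4 to 5 without a number that only STAT6WT holds. At 2 h the count (1) was 2 without the filter, with a mean count of at least 10, without the shallow libraries, or without D419N, and 1 to 2 without a replicate number. At 4 h (2) it was 1 without N421K and 1 to 4 without a replicate number, with STAT2 (adjusted p = 0.0388) added without replicate number 7. With a mean count of at least 10, it was 1 in D419G and 1 in D419N, and it was 1 to 2 in D419N without a replicate number, with IRF9 lost without number 1 (adjusted p = 0.170) or 3 (0.0655). The difference among lines (1) was 0 with DESeq2 and 0 to 1 without a replicate number, and IRF7 in N421K against D419N was lost without number 1 (adjusted p = 0.139) or 3 (0.147).

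Whether libraries of one replicate number belong together is not given. The correlation of their deviations from the group mean had a median of -0.0040 across times and 0.0020 across lines. It was over 0.1 for 4 of 54 and 7 of 54 pairs. Between libraries of other numbers, the medians were 0.0051 and -1.0e-04. No pairing was seen, but counting error enters these deviations, so that the correlation cannot exclude one. With the replicate block, the count was 2 across times, where STAT2 (0.38, adjusted p = 0.146), IRF1 (0.36, 0.175), and IRF2 (0.32, 0.126) did not pass. It was 0 at 2 h, where IRF7 (0.87, 0.0857) and IRF9 (0.85, 0.302) did not pass. The call of IRF9 at 2 h without the count filter was thus lost with the block. In D419N the count was 1, where IRF9 did not pass (0.97, 0.107). IRF1 did not pass with the block at 4 h (0.56, 0.477) or in N421K (0.44, 0.113). Values near 0 turned sign: STAT5B across times with the block (-0.013) and without D419G (-0.093), STAT5B in D419N with the block (-0.011) and without a replicate number (-0.11 to 0.19), STAT2 at 2 h with the block (-0.15), and IRF1 at 8 h without a replicate number (-0.0068 to 0.36). Numbers 4 to 9 hold STAT6WT libraries only, so that a blocked comparison of STAT6MUT with STAT6WT is made within numbers 1 to 3. Fewer libraries thus bear on the genotype effect with the block than in the reported fit. The part of this in the lost calls, and the causes of the other changes, were not tested. A member with a median of 6 UMIs per library (IRF9) is limited by counting error.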
